A study of Mus musculus with 2 samples.

Results

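The genes described here encode the proteins stored in the secretory granules of eosinophils. They are Prg2 (major basic protein), Prg3 (its homolog), Epx (eosinophil peroxidase) and the eosinophil-associated ribonucleases Ear1, Ear2, Ear6 and Ear10. They are 7 of the 23284 gene symbols in the deposited expression values. The genes were chosen by symbol with their levels and ratios in these same libraries already known, so that every difference between the libraries given for them is a description and carries no test.

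RNA-seq was performed on CML LSCs, the leukemia-initiating cells of chronic myeloid leukemia, which was modelled in mice. Donor LSK cells (lineage-, Sca-1+, c-Kit+) on the C57BL/6J background (Ly5.2) were infected with a retrovirus that carries human BCR-ABL and GFP, and were transplanted with normal bone marrow cells into lethally irradiated C57BL/6SJL (Ly5.1) recipients. At day 11 after the first transplantation, GFP+ CD45.2+ LSK cells were sorted from recipients, and each donor genotype, WT and STAP-1 KO (a targeted disruption of the STAP-1 locus), gave 1 library. Mice were 8 to 14 weeks old, and the number of mice behind each library is not given in the sources used here. Both groups therefore carry BCR-ABL, GFP and the transplantation, and they differ by the STAP-1 genotype of the donor. STAP-1 is an adapter protein of signal transduction.

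With 1 library per group, the genotypes cannot be told apart from the mice, the sorts and the library preparations. Stap1 itself had 62.0 FPKM in WT and 0.309 FPKM in STAP-1 KO. FPKM (fragments scaled to transcript length and to the mapped fragments of the library) is divided by transcript length, so that levels can be compared between genes. The files state no read counts, but low values fell on steps that gave an effective depth of 7500000 reads for WT and 10470000 for STAP-1 KO. Estimated reads and 95% exact Poisson intervals were derived from these depths and cover counting error only. For the granule genes listed at 0 or below 1 read, the level of 3 reads is given as a floor.

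Eosinophils are granulocytes that develop in the bone marrow from myeloid progenitors under the control of GATA and C/EBP factors and of interleukin-5. Transcripts of their granule proteins are made early in this differentiation, at the progenitor and myelocyte stages. Major basic protein forms the crystalline core of the granule and damages membranes of parasites and host cells. The peroxidase and the ribonucleases lie in the matrix around that core. The peroxidase makes hypohalous acids from hydrogen peroxide, and the ribonucleases belong to the RNase A superfamily, in which rodents carry many recent gene copies.

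The 3 non-ribonuclease genes had higher levels in the STAP-1 KO library. Prg2 was 29.15-fold higher, Epx 8.44-fold and Prg3 7.88-fold. The ribonucleases showed no common direction. Ear1 and Ear6 were detected in the STAP-1 KO library alone, Ear2 was 2.48-fold lower in that library, and Ear10 was listed at 0 in both. Of the 4 genes with at least 0.1 FPKM in both libraries, 3 were at least 2-fold higher and 1 at least 2-fold lower in STAP-1 KO. Among all 12507 genes above this floor, 12.3% were at least 2-fold higher and 22.9% at least 2-fold lower, and nothing is read from these shares for genes that were picked on the same contrast. The other 3 genes, Ear1, Ear6 and Ear10, were below the floor in a library and have no ratio.

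Prg2 and Prg3 are neighbours on chromosome 2 (GRCm38, the build of the deposited values; positions from GENCODE M21). Prg2 (ENSMUSG00000027073.5) lies at chr2:84980461-84983632 and Prg3 (ENSMUSG00000027072.13) at chr2:84988215-84993886, both on the plus strand with 6 exons each. A gap of 4.58 kb without a further gene separates them, and their coding sequences are identical at 64.5% of aligned bases. Epx (ENSMUSG00000052234.2) has 13 exons at chr11:87864000-87875536 on the minus strand. All 4 ribonuclease genes are on chromosome 14 and have 2 exons each. Ear1 (ENSMUSG00000072601.4) lies at chr14:43818765-43875517 on the minus strand, Ear10 (ENSMUSG00000090166.2) at chr14:43922720-43923559 on the minus strand, Ear2 (ENSMUSG00000072596.4) at chr14:44102654-44103534 on the plus strand and Ear6 (ENSMUSG00000062148.6) at chr14:51853699-51854643 on the plus strand.

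The ribonuclease genes are close copies of each other, and this bears on how far a 75-base read can be given to a single gene. The coding sequences of Ear2 and Ear10 were identical at 97.0% of aligned bases, those of Ear1 and Ear2 at 95.1% and those of Ear1 and Ear10 at 94.4%. Ear6 was the more distant member, at 87.3% to 87.6%. Read-length stretches of Ear1 and Ear2 show both ends of this range. Coding bases 171 to 245 hold no difference, at chr14:44103057-44103131 on the plus strand for Ear2 and chr14:43819165-43819239 on the minus strand for Ear1, and a read from this stretch cannot be assigned to either gene:
Ear1 and Ear2: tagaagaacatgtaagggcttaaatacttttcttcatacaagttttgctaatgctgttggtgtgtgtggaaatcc
Coding bases 96 to 170 are the stretch of this length in which both genes differ most, at 7 bases, which are in capitals. It lies at chr14:44102982-44103056 on the plus strand for Ear2 and at chr14:43819240-43819314 on the minus strand for Ear1:
Ear2: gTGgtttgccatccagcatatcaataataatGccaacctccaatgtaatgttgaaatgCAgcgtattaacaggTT
Ear1: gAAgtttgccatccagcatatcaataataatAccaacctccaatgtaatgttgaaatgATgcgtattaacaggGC

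All 75-base windows of each transcript were then compared letter for letter with the other annotated transcripts. Windows within 2 mismatches were sought among annotated relatives alone, which for Prg2 and Prg3 were each other. Of the 639 windows of Ear1, 251 (39.3%) occurred letter for letter in another gene, and 571 (89.4%) lay within 2 mismatches of a related gene. Ear2 shared 151 of 645 windows exactly (23.4%) and 543 (84.2%) within 2 mismatches, and Ear10 shared 196 of 604 (32.5%) and 418 (69.2%). The exact partners of Ear1 were mostly the pseudogene Ear-ps9 with 200 windows, followed by Ear10 with 62, Ear2 with 53 and Ear-ps2 with 42. Ear6 shared no window exactly and 28 of 639 (4.38%) within 2 mismatches. None of the 764 windows of Prg2, the 875 of Prg3 or the 2615 of Epx was shared in either way. The split of reads between Ear1, Ear2 and Ear10 is therefore uncertain, and for Ear6 the windows were compared with the annotated genes alone.

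**Figure D1:**
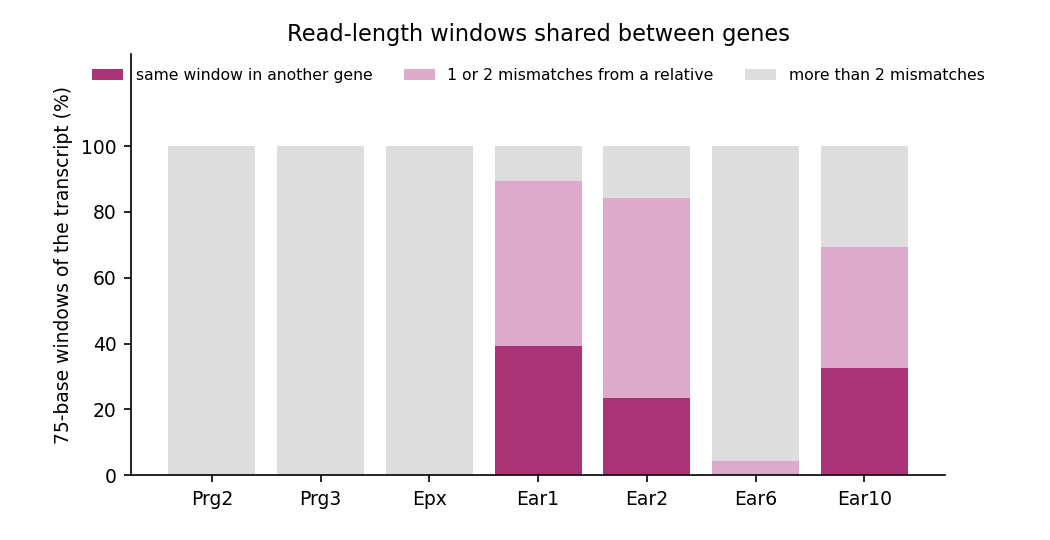
Share of all 75-base windows of each transcript (y axis, %) that occur identically in another gene, that lie 1 or 2 mismatches from a related gene, or that differ by more. Ear1, Ear2 and Ear10 share 89.4%, 84.2% and 69.2% of their windows within 2 mismatches, Ear6 4.38%, and Prg2, Prg3 and Epx none.

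Prg2, which encodes the major basic protein, had 2.12 FPKM in the WT library (counting interval 1.01 to 3.89) and 61.7 FPKM in STAP-1 KO (55.9 to 68.0). These levels correspond to 10 and 407 estimated reads. The counting intervals did not overlap, and the ratio of 29.15 had an interval of 15.7 to 61.3. Prg2 ranked 9972nd by level in the WT library and 2067th in the STAP-1 KO library, and its log2 ratio with a pseudocount of 0.1 FPKM, 4.80, was the 32nd highest of all symbols.

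Prg3 encodes the second form of major basic protein. It had 0.360 FPKM in WT (0.0436 to 1.30) and 2.84 FPKM in STAP-1 KO (1.78 to 4.29). Only 2 estimated reads stood behind the WT value and 22 behind the STAP-1 KO value, so that the 7.88-fold ratio had a wide interval of 1.94 to 69.1. The levels of both libraries did not overlap within counting error, but the lower bound of the ratio was just below 2.

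Epx, the peroxidase, had 1.02 FPKM in WT (0.615 to 1.59) and 8.62 FPKM in STAP-1 KO (7.53 to 9.83). Its transcript of 2689 bases is the longest of the 7, and 19 and 224 estimated reads stood behind these levels. The ratio of 8.44 had an interval of 5.28 to 14.3, and the libraries did not overlap within counting error.

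The 3 genes did not change by a common factor. Within a library the ratio of Prg2 to Epx was 2.07 in WT (0.861 to 4.68) and 7.16 in STAP-1 KO (6.06 to 8.46), and these intervals did not overlap. By contrast, the ratio of Epx to Prg3 was 2.83 in WT (0.685 to 25.1) and 3.04 in STAP-1 KO (1.96 to 4.95), a difference that lay within counting error. The ratio of Prg2 to Prg3 was 5.88 (1.25 to 55.2) and 21.8 (14.2 to 35.1), with intervals that overlapped. Summed, Prg2, Prg3 and Epx had 3.50 FPKM in WT and 73.2 FPKM in STAP-1 KO, and Prg2 made up most of the second sum.

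**Figure D2:**
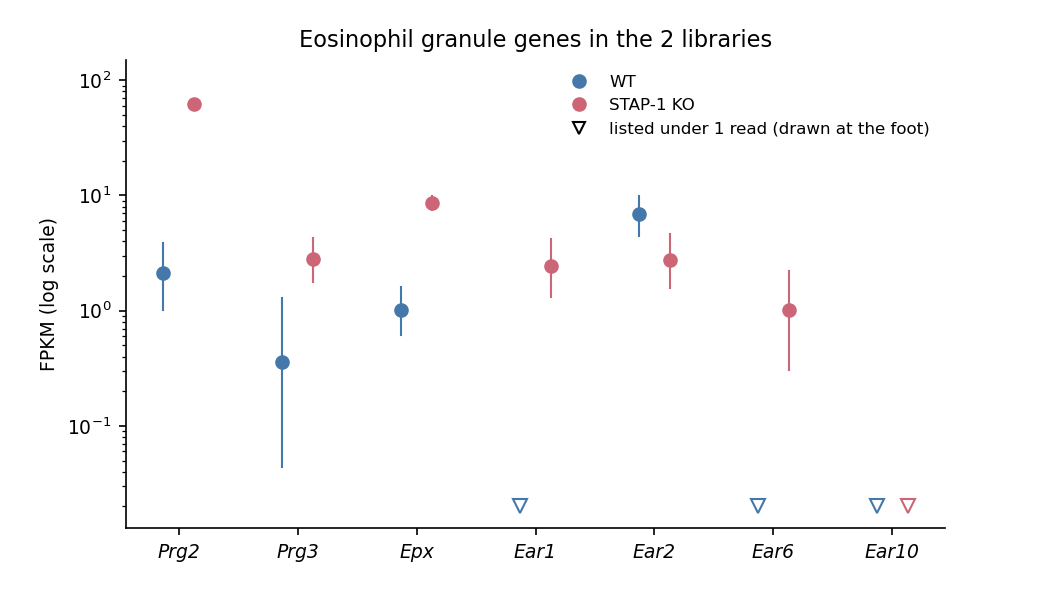
Level of each gene in the WT and STAP-1 KO libraries (y axis, FPKM, log scale); points are the deposited values, vertical lines are 95% Poisson counting intervals, and open triangles at the foot mark values below 1 read. Prg2 is at 2.12 and 61.7 FPKM and Ear2 at 6.91 and 2.78 FPKM, and Ear1 and Ear6 have a point in STAP-1 KO alone.

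Ear2 was the most abundant of the 7 genes in the WT library, with 6.91 FPKM (4.43 to 9.94). In the STAP-1 KO library it had 2.78 FPKM (1.57 to 4.62). Its WT level was 2.48-fold higher, with a counting interval of 1.23 to 4.91, and the level intervals overlapped narrowly. Behind these levels stood 26.5 and 14.9 estimated reads, which were rounded to whole reads for the intervals. The intervals leave out the uncertain assignment of reads, as 84.2% of Ear2 windows lay within 2 mismatches of a related gene.

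Ear1 was listed at 0 in WT, where 3 reads would be 0.792 FPKM, and at 2.46 FPKM in STAP-1 KO (1.31 to 4.20), which corresponds to 13 estimated reads. At the floor of 3 reads for the WT library, its log2 ratio would be 1.63. Ear6 was listed at 4.53e-06 FPKM in WT, a value far below the 0.264 FPKM that 1 read is worth, and at 1.01 FPKM in STAP-1 KO (0.307 to 2.21), from 5.33 estimated reads. The WT value is one that no whole read gives, and the Ear6 levels are uncertain too. The Ear6 level in STAP-1 KO lay close to its WT floor, and no difference could be detected at this depth. Ear10 was listed at 0 in both libraries, where 3 reads would be 0.851 FPKM in WT and 0.610 FPKM in STAP-1 KO.

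The summed level of the 4 ribonucleases does not depend on how reads are split among these 4. It can still depend on reads shared with other copies, since 200 windows of Ear1 also occur in Ear-ps9. The sum was 6.91 FPKM in WT and 6.25 FPKM in STAP-1 KO. The ratio of 0.904 had a wide counting interval of 0.527 to 1.58, which includes 1. Ear1 and Ear2 alone summed to 6.91 and 5.24 FPKM. The opposite values of Ear1 and Ear2 thus met in genes with 53 identical windows, and the part of read assignment in them was not tested.

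The files hold 10 rows of this ribonuclease family, of which 5 were at 0 in both libraries. Besides the members, Ear12 had 5.93 FPKM in WT and 1.89 FPKM in STAP-1 KO, and Ear7 had 0.513 and 2.09 FPKM. Ear4, Ear5, Ear11 and Ear14 were at 0 in both. One row with a higher level and one with a lower level therefore stood beside the members as well, and all 10 rows summed to 13.4 FPKM in WT and 10.2 FPKM in STAP-1 KO. Ear7 and Ear12 were not among the annotated genes used here, so that their windows were not compared.

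The order of the levels differed between the libraries. In WT it was Ear2, Prg2, Epx and Prg3, followed by Ear1, Ear6 and Ear10 below 1 read. Only Ear2 and Prg2 differed beyond counting error among neighbours in that order. In STAP-1 KO the order was Prg2, Epx, Prg3, Ear2, Ear1, Ear6 and Ear10. There Prg2 stood above Epx and Epx above Prg3 beyond counting error, whereas the levels of Prg3, Ear2, Ear1 and Ear6 each overlapped with the next. Over all 7 genes the median log2 ratio was 2.96, which is the value of Epx, against -0.04 for the 10974 genes whose mean reached 1 FPKM. When the values below 1 read were set to 3 reads, the median of the 7 was 1.63.

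**Figure D3:**
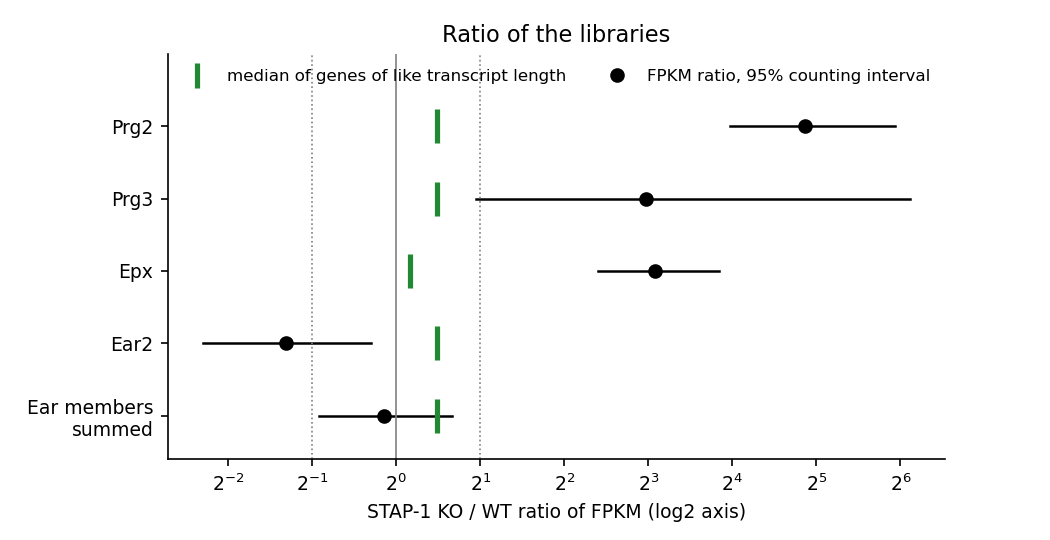
Ratio of STAP-1 KO to WT FPKM (x axis, log2 scale) for the genes that reached 0.1 FPKM in each library and for the sum of the 4 ribonucleases; lines are 95% counting intervals, dotted lines mark 2-fold, and green bars mark the median of genes of similar transcript length. Prg2, Epx and Prg3 lie at 29.15, 8.44 and 7.88, Ear2 lies below 1, and the interval of the ribonuclease sum, 0.527 to 1.58, includes 1.

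Short transcripts had higher ratios in general. The 544 expressed genes with transcripts of 77 to 957 bases had a median log2 ratio of 0.48, and all 7 genes with the exception of Epx belong to this class. Relative to this median, the log2 ratio was 4.32 for Prg2, 2.19 for Prg3 and -1.77 for Ear2. Epx was compared with 543 genes of 2555 to 2782 bases, whose median was 0.16, and its log2 ratio relative to them was 2.80. The direction of these 4 genes was therefore as before, and the difference of Ear2 was larger.

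Genes that flank Prg2 and Prg3 had similar levels in both libraries. Slc43a3, a nucleobase transporter gene 22.0 kb upstream, had 48.6 FPKM in WT and 50.3 FPKM in STAP-1 KO. Ssrp1, a subunit of the histone chaperone FACT, had 171 and 232 FPKM. P2rx3, an ATP-gated channel gene 4.70 kb beyond Prg3, was at 0 and 0.0240 FPKM, and Rtn4rl2, a Nogo receptor homolog, at 0 in both. Thus none of these neighbours was 2-fold different with a level above the floor in both libraries.

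Epx lies in a cluster of peroxidase genes. Lpo (lactoperoxidase) was at 0 in WT and 0.0351 FPKM in STAP-1 KO, and Mks1, a ciliary gene 0.196 kb from Epx, had 2.04 and 2.66 FPKM. The olfactory receptor genes Olfr462 and Olfr463 were at 0 in both. Mpo, the neutrophil peroxidase, lies 59.6 kb from Epx with 2 genes between them, and it had 248 FPKM in WT and 1973 FPKM in STAP-1 KO. Both leukocyte peroxidases were thus higher in STAP-1 KO while the genes between them were near the floor or differed by less than 2-fold. Of the other peroxidase-related genes, the cyclooxygenases Ptgs1 (75.7 and 26.7 FPKM) and Ptgs2 (24.8 and 5.48 FPKM) were lower, and Pxdn was at 0 in both.

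The sequences before the start sites are shown because Prg3 and Epx were both higher and because Ear1 and Ear2 nearly share theirs. They are RefSeq sequences (GRCm38.p6) before the RefSeq start, and 6 of the 7 genes had an entry. For Prg3 the 150 bases before the start (chr2:84988065-84988214, plus strand) are shown with a GATA word, read on the opposite strand, in capitals. For Epx (chr11:87875537-87875686, minus strand) the TATA word is in capitals:
Prg3: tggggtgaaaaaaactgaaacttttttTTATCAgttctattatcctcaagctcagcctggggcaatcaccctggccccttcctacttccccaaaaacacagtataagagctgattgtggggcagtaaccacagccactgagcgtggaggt
Epx: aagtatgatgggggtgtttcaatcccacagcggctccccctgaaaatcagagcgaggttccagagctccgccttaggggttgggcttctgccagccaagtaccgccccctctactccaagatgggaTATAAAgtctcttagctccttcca
For Ear1 (chr14:43819640-43819739, minus strand) and Ear2 (chr14:44102554-44102653, plus strand) the 100 bases before the start are shown, with the C/EBP word and CCAAT in capitals. GENCODE also lists a longer Ear1 transcript with a start further upstream, so that the Ear1 stretch lies inside the gene span given above:
Ear1: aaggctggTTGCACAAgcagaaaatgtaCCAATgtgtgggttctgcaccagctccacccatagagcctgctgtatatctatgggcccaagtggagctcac
Ear2: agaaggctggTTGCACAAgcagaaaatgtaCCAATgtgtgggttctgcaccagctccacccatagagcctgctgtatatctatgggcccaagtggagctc

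Over the 250 bases before the start, Ear1 and Ear2 were identical at 97.6% of aligned bases, although their listed levels went in opposite directions, and Ear6 was identical to the other ribonucleases at 77.3% to 79.6%. For Ear6, too, GENCODE lists a further transcript with an earlier start than the RefSeq one. Words of 6 motifs were searched on both strands of these windows. A GATA word (AGATAA or TGATAA or AGATAG or TGATAG) was found in Prg3 alone, and in 26.5% of all 32851 windows. A C/EBP word (TTGCNNAA or TTNCGNAA) was found in Ear1, Ear2 and Ear10, and in 10.8% of all windows. These 3 also held an ETS word (GAGGAA or AAGGAA), which 39.7% of all windows hold. CCAAT was found in all 4 ribonucleases and in 33.8% of windows, and TATAAA in Epx and in 12.4%. The STAT word TTCNNNGAA, present in 7.02% of windows, was found in none of the 6. These matches are descriptions of the letters and not binding sites.

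A wider list of genes linked to eosinophil development and function held genes of both directions. Of 40 listed genes, 35 had at least 0.1 FPKM in both libraries, of which 4 were at least 2-fold higher and 18 at least 2-fold lower in STAP-1 KO, and the median log2 ratio of the 40 was -0.92. Over all genes above the floor, 12.3% were higher and 22.9% lower. The lower genes included Csf2rb, the common receptor subunit for interleukin-3, interleukin-5 and GM-CSF, with 260 FPKM in WT and 26.2 FPKM in STAP-1 KO. Its mouse paralog Csf2rb2 had 238 and 6.17 FPKM. Il1rl1, the interleukin-33 receptor, had 521 and 23.3 FPKM, the transcription factor gene Gata2 409 and 55.2 FPKM, Id2 896 and 94.5 FPKM, and Serpinb2, an inhibitor of plasminogen activators, 11.7 and 0.487 FPKM. The 4 higher genes were Cebpa (0.768 FPKM in WT and 4.36 FPKM in STAP-1 KO) and Cebpe (1.17 and 3.99 FPKM), whose C/EBP proteins act in granulocyte development, Id1 (17.3 and 48.1 FPKM) and Lmo4 (6.61 and 17.5 FPKM). The 6 lower genes named are known to be expressed in other myeloid cells too, among them basophils and mast cells.

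None of the defining surface receptors of eosinophils was at least 2-fold higher in STAP-1 KO. Il5ra, the specific interleukin-5 receptor subunit, had 0.439 FPKM in WT and 0.628 FPKM in STAP-1 KO, a difference below 2-fold. Ccr3, the eotaxin receptor, had 0.261 and 0.0312 FPKM. Siglecf, listed under its older symbol Siglec5, had 27.9 and 11.4 FPKM. In a bulk sample, fewer cells of a type and less RNA per cell cannot be told apart.

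In a list of RNase A superfamily genes and their inhibitor, the genes that could be compared were lower in STAP-1 KO. Outside this list, Ear7 was higher and Ear12 lower in that library, as given above. The list held 16 genes, including the inhibitor Rnh1 and the rows Ear5 and Ear11 counted above. Of the 16, 5 had at least 0.1 FPKM in both libraries, and all 5, with Rnh1 among them, were at least 2-fold lower. The share at least 2-fold lower over all genes above the floor was 22.9%. Rnase4 had 101 FPKM in WT and 6.46 FPKM in STAP-1 KO, Rnase6 had 524 and 84.4 FPKM, Rnase12 had 23.2 and 4.57 FPKM, and Ang (angiogenin) had 7.85 and 1.64 FPKM. Rnh1, which encodes the cytosolic inhibitor of these enzymes, had 358 and 149 FPKM. Rnase1 had 1.40 FPKM in WT and was listed at 0 in STAP-1 KO. In the other direction, Rnase13 was listed at 0 in WT and had 0.941 FPKM in STAP-1 KO, and Rnase10 was listed at 0 and had 0.291 FPKM.

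Markers of other cell types also differed between the libraries, and their part in the values above was not tested. Shares over all genes above the floor were 12.3% at least 2-fold higher and 22.9% at least 2-fold lower. The 5 listed markers of the neutrophil primary granule stage were all at least 2-fold higher in STAP-1 KO. Their median log2 ratio was 3.01, and their summed level was 564 FPKM in WT and 4623 FPKM in STAP-1 KO. Elane (neutrophil elastase) had 112 and 823 FPKM, Prtn3 (proteinase 3) 57.4 and 525 FPKM, Ctsg (cathepsin G) 104 and 841 FPKM, and Ms4a3 41.5 and 460 FPKM. These proteins are made at the promyelocyte stage. The summed level of Prg2, Prg3 and Epx in STAP-1 KO, 73.2 FPKM, was low beside them.

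Markers that appear later in neutrophils, or that belong to basophils and mast cells, were mostly lower in STAP-1 KO. For comparison, 22.9% of all genes above the floor were at least 2-fold lower and 12.3% at least 2-fold higher. Of 7 listed markers of the secondary granule stage, 5 were at least 2-fold lower and none was 2-fold higher, with a median log2 ratio of -1.85. Among the 7 basophil markers 6 were at least 2-fold lower, with a summed level of 7630 FPKM in WT and 1526 FPKM in STAP-1 KO. Mcpt8, the basophil protease gene of the mouse, had 2801 and 993 FPKM. All 7 mast cell markers with a ratio were lower, and the markers summed to 47068 and 4021 FPKM. Mrgprb1 was listed at 0 in WT and had 0.168 FPKM in STAP-1 KO, and Mrgprb2 had 0.357 FPKM in WT and was listed at 0 in STAP-1 KO. The monocyte and macrophage markers were mixed, with 2 at least 2-fold higher and 3 lower of 7 and a median log2 ratio of -0.08.

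**Figure D4:**
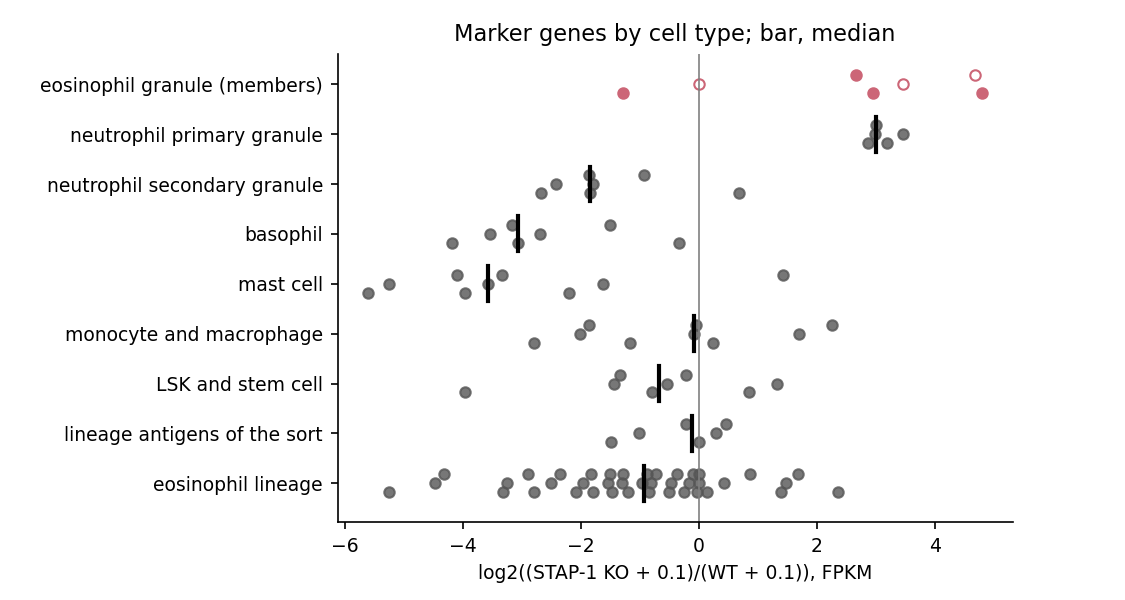
Log2 ratio of STAP-1 KO to WT (x axis, FPKM with 0.1 added) for every gene by marker list (y axis); the eosinophil granule genes are red, with open circles for those below 1 read in a library, and black bars mark the medians of the other lists. The median is 3.01 for the neutrophil primary granule stage markers and -1.85 for the secondary granule stage markers. It is -3.07 for basophil and -3.57 for mast cell markers, and Ear2 is the red point below 0.

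The markers of the sort itself were present in both libraries, but Kit and Ly6a were each at least 2-fold lower in STAP-1 KO. Kit is also counted among the mast cell markers above. Kit had 468 FPKM in WT and 30.1 FPKM in STAP-1 KO, and the Sca-1 gene Ly6a had 285 and 106 FPKM. Ptprc, the gene of CD45, had 107 and 38.2 FPKM. Of 8 listed LSK and stem cell genes, 4 were at least 2-fold lower and 1 higher, Slamf1 (3.39 and 8.67 FPKM). Among all genes above the floor these shares were 22.9% and 12.3%. Itgam, the gene of the lineage antigen CD11b that mature eosinophils carry, had 1.82 and 1.56 FPKM. Cells positive for CD11b or Gr-1 were removed by the lineage gate.

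Genes with the most similar pair of levels were sought for each granule gene by their distance in log2(FPKM + 0.1) over the 2 libraries. Prg2 had no gene within a distance of 0.5. Its nearest were Clec11a, a growth factor for hematopoietic progenitors, at a distance of 0.94 (3.20 and 36.8 FPKM), Cd27 at 1.10 and Trem3 at 1.23. For Prg3, 26 genes lay within 0.5, led by Spsb4, Prom1 and BC020535, and for Epx 13 genes, among them Krt18 and Tst. Ear2 had 262 such genes, led by Tgfbr3, Clcn2 and Pan3, Ear1 had 10, led by Hist1h3c, Hist1h4j and Insl3, and Ear6 had 35, led by Sult5a1, Ly6i and Hamp. With 2 libraries as the only points, such likeness is a description of levels.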

How the data were processed

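RNA-seq was performed on GFP+ CD45.2+ LSK cells of 1 WT and 1 STAP-1 KO group. The authors amplified cDNA with a SMART-Seq low-input kit, sequenced 75-base single reads, mapped them to mm10 with TopHat 2.0.13 and Bowtie2 2.2.3 and deposited FPKM values from Cuffnorm 2.2.1. SAMtools was 0.1.19 per the labels, whereas the methods of the paper name another version. Gene annotation, library scaling and the handling of reads with several positions are not given in the sources used here.

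Ratios used genes with at least 0.1 FPKM in both libraries, a 2-fold cut-off and, for log2 ratios, a pseudocount of 0.1 FPKM, which understates ratios of low genes. No p-value is possible with 1 library per group. Values of genes with 1 transcript of over 500 bases below 0.3 FPKM gave the effective depths. Of these values 45.8% (WT) and 47.3% (STAP-1 KO) were within 0.01 of whole reads, where 2% would be by chance. Estimated reads are FPKM times this depth times the transcript length less 208 bases. Intervals are exact (Poisson for levels, Clopper-Pearson for ratios) and cover counting error only, since reads carried no molecular identifiers. Symbols were matched to GENCODE M21 (20911 as written, 1914 through an older symbol, 459 unmatched). Python 3.11.15, pandas 2.3.3, scipy 1.17.1 and Biopython 1.88 were used, and the steps were tested on simulated data. Near-identical windows were sought among annotated relatives of each gene, and identical ones among all annotated transcripts.

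Members and gene lists were chosen with earlier results of these data known. All 7 genes were named, with up to 6 genes per list by absolute log2 ratio (pseudocount of 1 FPKM) besides defining markers, the nearest 2 coding genes on each side, and the 3 genes nearest in level. Mrgprb1, Mrgprb2, Rnase10, Rnase13, Cebpa, Cebpe, Id1, Lmo4 and the Ear rows at 0 were named after their values were seen. A few genes that this rule selects are not reported here. Alternatives changed the floor, cut-off, pseudocount, scaling, length correction and genes included.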

Additional observations from a re-analysis of the deposited data

How the results depend on the processing

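No paired analysis was possible because each group has 1 library. The number of granule genes at least 2-fold higher was 3 in the main setting, the other cut-offs, the scalings and the length correction. It was 2 with a floor of 1 FPKM and 4 without a floor. The gene added without a floor was Ear6, whose WT value no whole read gives. The number at least 2-fold lower was 1, and 0 with a 4-fold cut-off. The median log2 ratio of the 7 genes moved from 2.96 to 1.496 with a pseudocount of 1 FPKM and to 1.63 with values below 1 read set to 3 reads, an alternative chosen after seeing the data. Without the Ear genes, also chosen after seeing the data, it was 2.96. The log2 ratio stayed between 4.32 and 4.90 for Prg2, 1.496 and 2.94 for Prg3, 2.25 and 3.07 for Epx and -1.77 and -1.06 for Ear2. For Ear1, at 0 in WT, it depended on the pseudocount and ranged from 1.79 to 7.95, and for Ear6 from 1.01 to 6.67. The ribonuclease sum ranged from -0.63 to -0.04, the lowest with the length correction, and was -0.38 over all 10 Ear rows, summed after seeing the data. No direction was reversed among these genes under the alternatives run. The other scalings changed the ratio of the libraries by 0.01 to 0.10 on the log2 scale before the pseudocount was added. Depth limits Prg3, with 2 estimated reads in WT, and the ribonucleases, with at most 26.5 estimated reads each.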
